A study of Arabidopsis thaliana with 4 samples.

Results

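The regions described here are 392 peaks of SMXL6-HA chromatin binding that were found in both replicates and whose centre lay inside a protein-coding gene of Arabidopsis thaliana. They were measured by chromatin immunoprecipitation followed by sequencing (ChIP-seq), in which DNA bound to a tagged protein is recovered with an antibody, here a polyclonal antibody against the HA tag. A peak is a stretch of the genome where the tagged sample gave more reads than its control. All plants were whole seedlings aged 2 weeks, grown at 21 °C in cycles of 16 h of light and 8 h of dark. All carried the smxl6/7/8 triple mutation. The 2 SMXL6-HA libraries came from triple mutants with the transgene pSMXL6:SMXL6-HA, in which the SMXL6 promoter drives tagged SMXL6, and the 2 control libraries came from the triple mutant without it. The labels do not say how many transgenic lines were used or whether the replicates came from separate cultures, so overlap between the replicates may measure technical spread only. The transgene also adds SMXL6 sequence that the control lacks.

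SMXL6, SMXL7 and SMXL8 are related nuclear proteins that repress transcription downstream of strigolactone, a hormone that restrains shoot branching. When strigolactone is perceived by the receptor D14, the F-box protein MAX2 marks these repressors for degradation. They carry an EAR motif, through which they recruit TOPLESS corepressors, and SMXL6 has been described to bind DNA and to repress its own gene.

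The authors called peaks once per replicate, each SMXL6-HA library against the control of the same number. List 1 is the replicate 1 comparison and list 2 the replicate 2 comparison. Each peak has a start, an end and a score, the authors' own value, which ranks peaks within a list and was taken to be the peak's p on a negative log10 scale, multiplied by 10. List 1 held 1789 peaks and list 2 held 1442. In list 2, 1077 peaks (74.7%) had at least 1 bp in common with a peak of list 1. In list 1, 982 peaks (54.9%) did so with list 2. The midpoint of the list 2 peak lay inside a nuclear protein-coding gene for 392 of the 1077 replicated peaks (36.4%). Of the other replicated peaks, 451 were centred outside genes but within 1000 bp of one, and 234 farther away. The 392 peaks were chosen by the start and end of the peaks in both lists, through overlap and midpoint, so neither of these is a finding. Read depth is unknown, because the lists hold no read counts, and each group had 2 libraries, so no test over samples could be made.

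The smallest overlap among the 392 was 787 bp, at THE1, a receptor kinase gene, where it was the whole list 2 peak. The next smallest were 819 bp at RIN4 and 831 bp at HVA22H, so the minimum of 1 bp left no peak in by a few bases. The list 2 peaks centred in genes that came closest without overlap lay 145 bp from a list 1 peak at AT3G22410, 189 bp at WAT1 and 191 bp at RTFL12. At the gene boundary, the midpoints at AFP3, AT4G08550 and AT5G12043 fell on the outermost base of the gene, 0 bp inside, at the upper end of the first 2 genes and the lower end of the last. Those at DGR2, AT4G33440 and AT2G39650 fell 2 bp outside. Midpoints thus lay within a few bases on both sides of this boundary.

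Peaks centred in genes made up 39.8% of all list 2 peaks (574 of 1442) and 46.3% of all list 1 peaks (829 of 1789). Of the 574 list 2 peaks centred in genes, 392 (68.3%) were replicated, against 685 of the 868 centred outside genes (78.9%). The gap was present at low and middle scores. With list 2 split by score into 4 equal classes, 49.7% of peaks inside genes and 61.6% of those outside were replicated in the lowest class. In the next class the shares were 60.5% and 70.7%, and in the one above it 74.0% and 83.8%. In the highest class they were 95.3% (122 of 128) and 96.1% (224 of 233), close to each other. These shares describe 1 pair of lists and carry no test.

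The 392 midpoints fell in 397 genes, 1.45% of the 27432 nuclear protein-coding genes. In 381 peaks the midpoint lay in exactly 1 gene and in 11 it lay in 2 overlapping genes. Conversely, 6 genes held 2 midpoints each. The peaks were spread over all 5 chromosomes, with 112, 54, 73, 58 and 95 on chromosomes 1 to 5. Per Mb of protein-coding gene this was 6.51, 5.53, 5.79, 5.88 and 6.32, a narrow range. In 15 peaks (3.83%) the midpoint also lay in a long non-coding or antisense RNA gene, while 1.47% of protein-coding gene length lies in such genes. Sites of this kind cannot be given to one gene or the other.

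Scores covered a wide range. In list 2 the gene-centred peaks ran from 50.19 to 3100, with quartiles of 68.99 and 182 and a median of 102. The list 1 peaks over them ran from 50.45 to 3100, with quartiles of 81.32 and 194 and a median of 122. The other replicated peaks had medians of 108 in list 2 and 129.6 in list 1, so peaks inside genes lay slightly lower in both lists. Within the others, the list 2 median was 111 for peaks within 1000 bp of a gene and 102 for those farther away. Unreplicated list 2 peaks centred in genes had a median of 69.98. Peaks inside genes supplied 5 of the 10, 19 of the 50 and 33 of the 100 highest replicated list 2 scores. The shares of the 50 and of the 100 highest are close to the 36.4% that they made up of all replicated peaks.

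The highest score in both lists, 3100, was at SMXL6 itself, at chr1:2208640-2215505 in list 2. That peak was centred 646 bp inside the upper end of the gene. The same score in both lists may be a ceiling, and the transgene adds copies of this sequence, so the locus cannot be compared with the rest. Next by mean rank was A/N-InvC, which encodes an invertase that splits sucrose, with 1908.17 in list 2 and 971.14 in list 1 (chr3:2011004-2013416). GATA1, a zinc finger transcription factor gene, scored 1072.46 and 885.08 (chr3:8684915-8687730). CBF1, an activator of cold-responsive genes, scored 1332.03 and 857.61 (chr4:13020715-13024341). These scores lay several times above the medians of both lists.

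The others of the 12 best by mean rank belonged to several kinds of gene. CAT6, a gene for a cationic amino acid transporter, scored 849.64 in list 2 and 641.39 in list 1 (chr5:1378926-1382440). TCP9, a class I TCP growth regulator gene, scored 976.62 and 550.61 (chr2:18819230-18823577). RALF23, which encodes a secreted signalling peptide, scored 687.95 and 525.35 (chr3:5644146-5646877). CKX7, whose product degrades cytokinin, scored 653.85 and 500.34 (chr5:7226487-7230239). AT3G50800, AT1G75800, AT1G22830 and AT1G79120 completed the 12, with list 2 scores of 641.95, 646.08, 695.03 and 664.16 and list 1 scores of 577.38, 509.19, 482.46 and 418.78. The list 1 peak at AT1G79120 was 9731 bp wide and also overlapped other list 2 peaks, 3 in all, so its list 1 score is not of that site alone.

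**Figure D1:**
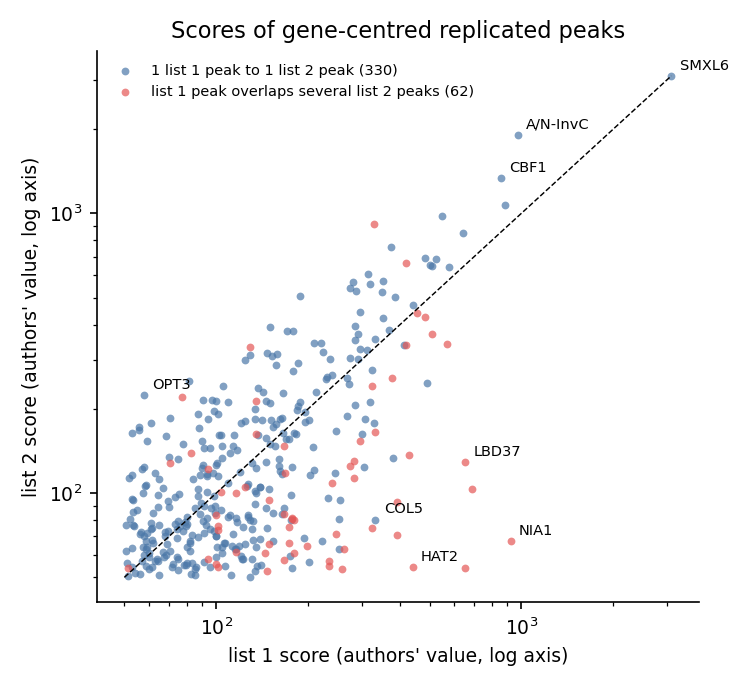
Score of each of the 392 gene-centred replicated peaks in list 2 against the score of the list 1 peak over it, both on log axes and both the authors' values. Blue points are the 330 pairs matched 1 to 1, red points the 62 whose list 1 peak overlaps several list 2 peaks, and the dashed line marks equal scores. Scores rise together, with SMXL6 at 3100 in both lists, while NIA1, HAT2 and LBD37 sit far to the right of the line.

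For 330 of the 392 (84.2%) the pairing was 1 to 1, with no further peak of either list involved, and across these pairs Spearman's rho between the scores was 0.609. Over all 392 it was 0.516. These coefficients describe sites from the same pair of libraries, which are not independent, and score also rose with width, with rho of 0.468 in list 2 and 0.415 in list 1. The remaining 62 peaks (15.8%) lay under a list 1 peak that took in several list 2 peaks, and none lay under several list 1 peaks. Some of the largest disagreements were of this kind. The lower peak of NIA1, a nitrate reductase gene, scored 67.38 in list 2 and 921.76 in list 1, where the peak was 9754 bp wide and overlapped 3 list 2 peaks. HAT2, a class II HD-ZIP gene, scored 54.26 against 439.97, and LBD37, a repressor of nitrogen-responsive genes, 129.42 against 653.92. Disagreement also occurred at unshared peaks. OPT3, a transporter gene involved in iron status, scored 223.52 in list 2 and 58.03 in list 1. COL5, a CONSTANS-like gene, scored 80.39 and 332.53, and the abscisic acid receptor gene PYL8 56.77 and 200.73.

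Peaks were much narrower in list 2. Gene-centred list 2 peaks were 787 to 6866 bp wide with a median of 1365 bp, and the list 1 peaks over them 1163 to 10193 bp with a median of 3322 bp. The other replicated peaks were narrower in both lists, with medians of 1226 bp and 2977 bp. In 319 of the 330 pairs (96.7%) the peak of list 2 was contained in that of list 1. The midpoints of a pair were a median of 334.5 bp apart, with quartiles of 116 and 660.75 bp and a maximum of 2593 bp. As a result, the list 1 midpoint lay in the same gene for 245 of the 341 combinations of a paired peak and a gene (71.8%), and for 274 of 403 (68.0%) with all peaks. At the remaining sites the gene that held the centre depended on the list.

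Most peaks ran over an end of the gene they were centred in. Of the 381 list 2 peaks with a midpoint in 1 gene, 286 (75.1%) crossed 1 end, 48 (12.6%) lay wholly inside the gene and 47 (12.3%) covered it whole. The genes differed in size, with median lengths of 2384.5 bp where 1 end was crossed, 3391 bp where the peak lay inside and 1252 bp where it covered the gene. Median list 2 scores were 101, 84.48 and 147 in the same order. The wider list 1 peaks gave another picture. Of these 8 (2.1%) lay inside the gene, 197 (51.7%) crossed 1 end and 176 (46.2%) covered it. List 2 peaks covered a median of 43.4% of the gene, with quartiles of 29.9% and 72.2%. A list 2 peak reached a further protein-coding gene in 84 of 392 cases (21.4%) and a list 1 peak in 203 (51.8%).

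Peaks inside 1 gene in both lists numbered 8 of 381 (2.1%). The highest by mean rank was at DFL2, a gene of the GH3 family, at chr4:1499344-1501087, with scores of 442.72 in list 2 and 296.76 in list 1. Its midpoint stood 1384 bp from the nearer end of a gene of 4064 bp. ROT3, which encodes a cytochrome P450 of brassinosteroid synthesis, scored 127.7 and 100.76, with the midpoint 2088 bp from an end (chr4:17188980-17190253). AT5G18310 scored 68.54 and 138.69. GA2OX8, which encodes an enzyme that inactivates gibberellin precursors, scored 64.48 and 118.98, with the midpoint 1578 bp from an end (chr4:11304400-11305985). At these genes neither list placed the peak over an end of the gene that held the midpoint. Ends of neighbouring genes were not part of this count.

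**Figure D2:**
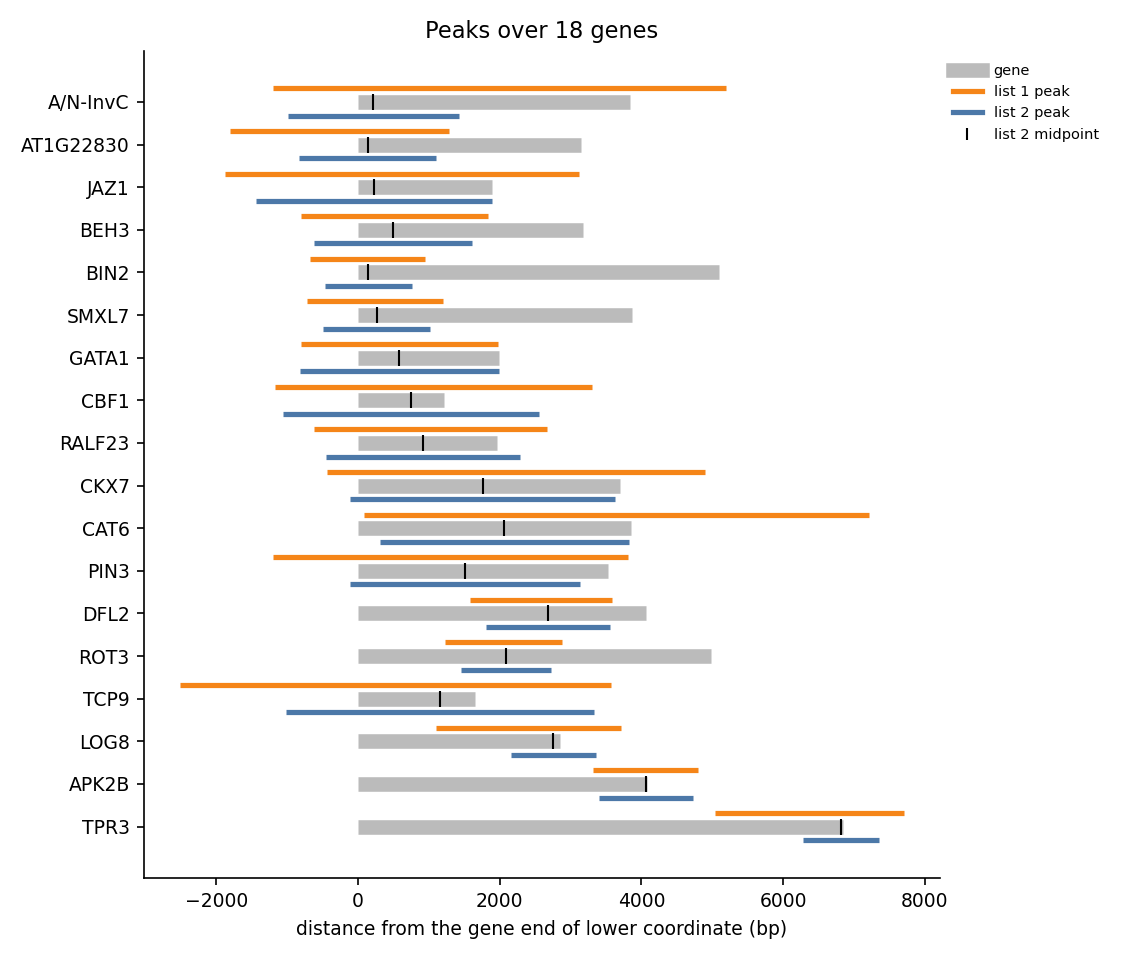
List 1 peaks (orange), list 2 peaks (blue) and list 2 midpoints (black ticks) over 18 genes (grey), drawn to scale in bp from the gene end of lower coordinate, without regard to strand. Peaks of both lists sit over the lower end at AT1G22830, BIN2 and SMXL7, as does the list 2 peak at A/N-InvC, where the list 1 peak covers the gene. They cover the whole gene at CBF1, RALF23 and TCP9 in both lists, lie inside the gene at DFL2 and ROT3, and sit over the upper end at LOG8, APK2B and TPR3.

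Positions along the gene are given from the end of lower coordinate, because the gene table used here holds no strand. The lower end can therefore be the start or the finish of the gene. In list 2 the 381 midpoints were more frequent near the ends than in the middle. With each gene cut into 5 equal parts, these held, from the lower to the upper end, 112, 55, 42, 49 and 123 midpoints, or 29.4%, 14.4%, 11.0%, 12.9% and 32.3%, where an even spread would give 20% each. The outer parts, the first and the last of the 5, together held 235 (61.7%), against 40% under an even spread. In genes of at least 2000 bp the outer parts held 175 of 243 midpoints (72.0%), and in shorter genes 60 of 138 (43.5%), close to an even spread.

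The size of this pattern depended on the list. With list 1 midpoints, counted once for each replicated list 2 peak, the outer parts held 203 of 453 (44.8%). In genes of at least 2000 bp they held 134 of 266 (50.4%), and in shorter genes 69 of 187 (36.9%). The preference for ends was thus strong in the narrower peaks of list 2 and small in the wider peaks of list 1. List 1 peaks more often covered the gene whole. The part of peak width in this difference was not tested.

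**Figure D3:**
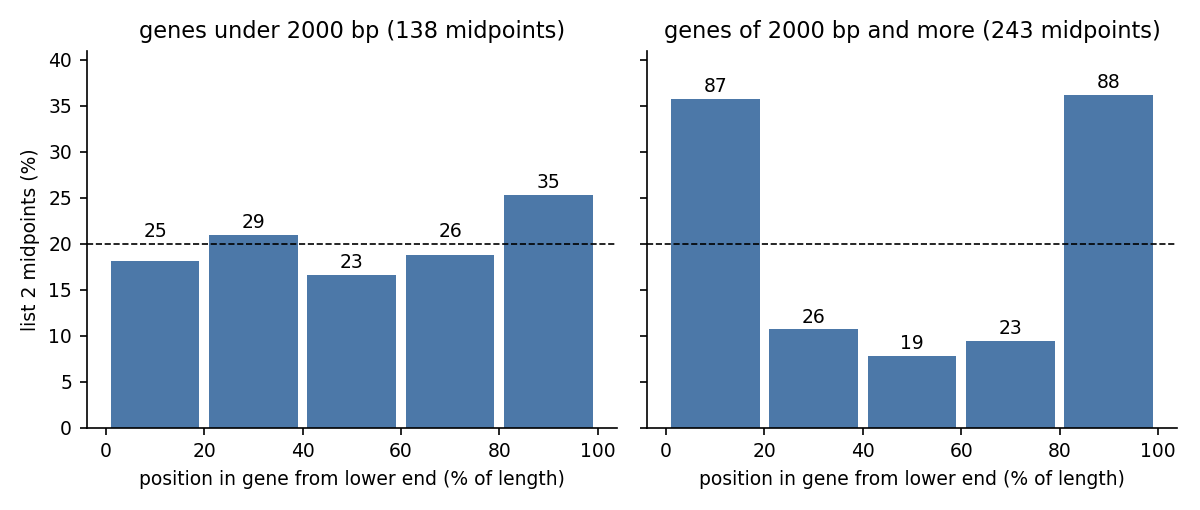
Share of list 2 midpoints in each of 5 equal parts of the gene, from the gene end of lower coordinate, for 138 midpoints in genes under 2000 bp and 243 in genes of 2000 bp and more. Numbers above the bars are counts and the dashed line is the 20% of an even spread; in the longer genes the outer parts hold 87 and 88 midpoints and the middle part 19.

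In distance, the list 2 midpoint stood a median of 266 bp from the nearer gene end, with quartiles of 120 and 534 bp and a maximum of 2364 bp. Within 200 bp of an end were 146 midpoints (38.3%), in a zone that made up 15.2% of the length of these genes. Within 500 bp were 277 (72.7%), in a zone of 37.5%. These zones are parts of the pooled length, in which long genes weigh more. They are therefore not the share that an even spread within each gene would give. In the 50 cases in genes of at least 4000 bp, 19 (38.0%) lay within 200 bp, a zone of 7.77%, and 30 (60.0%) within 500 bp, a zone of 19.4%. With list 1 midpoints 242 of 453 (53.4%) lay within 500 bp of an end. Single genes show both forms. TPR3, a TOPLESS-related corepressor gene, is 6848 bp long and was centred 26 bp inside its upper end (chr5:9515001-9516078), with scores of 380.5 and 170.94. GLU1, for ferredoxin-dependent glutamate synthase, is 8704 bp long and was centred 61 bp inside its lower end, with scores of 117.61 and 168.58. BIN2, a kinase gene that holds back brassinosteroid responses, is 5091 bp long and was centred 147 bp inside its lower end (chr4:10295666-10296904), with scores of 163.76 and 165.22. Centres deep in the gene were seen at CKX7, 1757 bp from its lower end, and CAT6, 1795 bp from its upper end. Their list 2 peaks covered 98.2% and 91.1% of the gene, so these centres are the middles of wide peaks and do not mark a narrow site.

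Midpoints in the outer parts tended to lie at the end that faced more space. The gap from the nearer end to the next protein-coding gene had a median of 1668 bp (quartiles 582 and 3055 bp), and the gap beyond the farther end 689 bp (quartiles 114.5 and 2088.5 bp). The median over the ends of all protein-coding genes was 650 bp. The nearer side had the wider gap in 152 of 234 cases (65.0%). With list 1 midpoints it did so in 135 of 202 (66.8%), with medians of 1926 bp and 752 bp, so this feature was of like size in both lists. For midpoints in the inner parts the medians were 1640 bp and 1838 bp, and the nearer side was wider in 76 of 146 (52.1%). Both gaps of these genes were wider than the median over all genes.

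**Figure D4:**
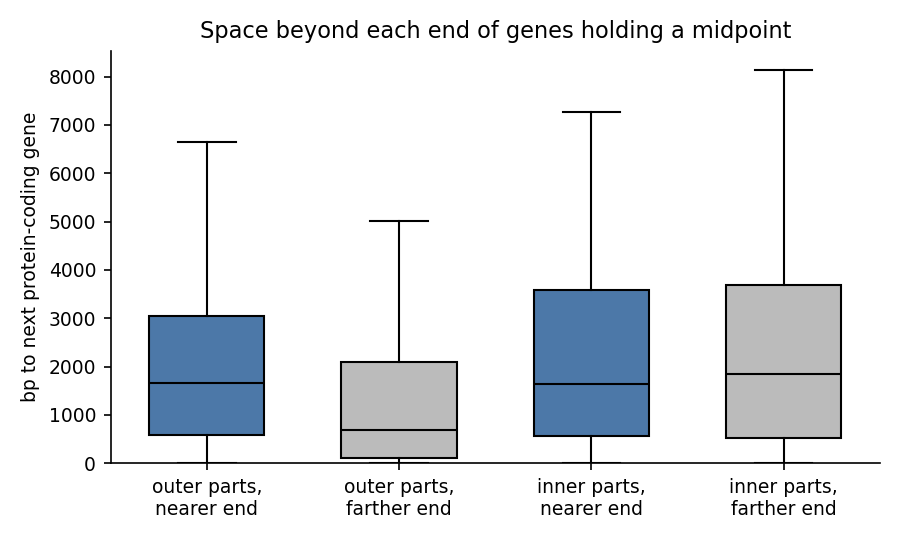
Distance in bp from each end of the gene to the next protein-coding gene, for list 2 midpoints in the outer parts and in the inner parts, at the end nearer to the midpoint (blue) and the farther end (grey). Lines are medians, boxes quartiles and whiskers reach up to 1.5 times the box height, with points beyond them not drawn; in the outer parts the median is 1668 bp at the nearer end and 689 bp at the farther end, and in the inner parts 1640 bp and 1838 bp.

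Genes holding a midpoint were a little longer than genes in general. Their length ran from 132 to 8704 bp with a median of 2275 bp and quartiles of 1649 and 3269 bp, against a median of 2078 bp and quartiles of 1324 and 3030 bp over all protein-coding genes. Of genes under 1000 bp, 25 of 4373 (0.572%) held a midpoint. The share was 1.44% from 1000 to 2000 bp, 1.62% from 2000 to 3000 bp, 2.02% from 3000 to 4000 bp and 1.6% from 4000 bp. Longer genes have more room for a midpoint. Per Mb of gene the order turned round, with 8.86, 9.43, 6.64, 6.12 and 2.95 midpoints in the same classes and 6.08 overall.

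Of the 6 genes with 2 midpoints, HDG1 had the best mean rank. This homeobox gene of the HD-ZIP IV class, whose members act in the epidermis, is 4825 bp long. Its upper peak (chr3:22633311-22635972) scored 323.87 in list 2 and 311.4 in list 1, and its lower peak (chr3:22629919-22631192) 104.64 and 66.95. The midpoints stood 514 bp from the upper end and 224 bp from the lower end, and each had a list 1 peak of its own. At AT4G36170, too, each peak had its own list 1 peak, with scores of 103.71 and 149.13 at the upper one and 59.14 and 74.51 at the lower one. The upper midpoint of NIA1 scored 115.33 in list 2 and 93.14 in list 1, at a list 1 peak apart from the wide one over its lower end. At BT2, FAD3 and AT2G16660 a single list 1 peak overlapped both list 2 peaks, with list 1 scores of 173.14, 233.75 and 93.62. Their list 2 scores were 75.54 and 66.49 at BT2, a BTB-TAZ scaffold gene, 57.01 and 54.97 at FAD3, which encodes a fatty acid desaturase, and 122.22 and 57.95 at AT2G16660.

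Kinds of genes were described with 36 gene lists, 14 written as symbols and 22 as symbol patterns. In all, 68 of their 1425 genes (4.77%) held a midpoint, against 1.45% of all protein-coding genes. Genes with a symbol did so in 2.03% of cases (210 of 10363) and genes without one in 1.1%. Of the listed genes only 10 have no symbol in the gene table, so 2.03% is the nearer background. The share was above it in 24 of the 36 lists, and 9 lists had no gene with a midpoint. A short list passes 2.03% with 1 gene, as the GATA list did with 1 of 22 (4.55%). Some genes, such as LBD37, also stand in more than 1 list. The count of 24 thus depends on list length and is not a result about kinds of genes. A list holds the symbols written for it or those of its pattern, not the whole family, so each count is of the list and misses relatives under other names. The lists were chosen with earlier results of these data known, so these shares are descriptions. Of the 70 listed midpoints that fell in 1 gene, 34 (48.6%) lay in the outer parts, 52 peaks (74.3%) crossed 1 end in list 2 and 8 (11.4%) lay inside the gene. The list 1 midpoint was in the same gene for 52 of them.

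**Figure D5:**
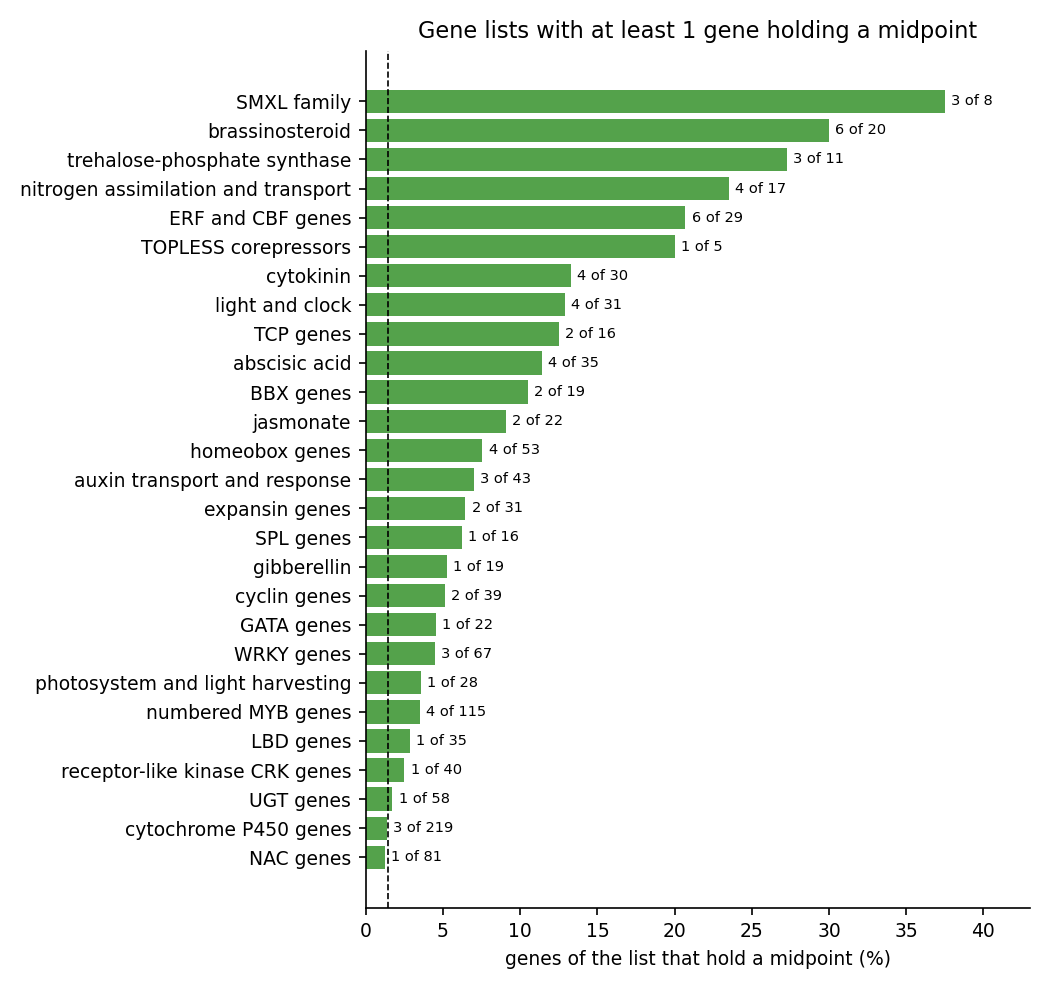
Share of the genes of each list that hold the midpoint of a replicated list 2 peak, in percent, for the 27 lists with at least 1 such gene, with counts beside the bars. The dashed line is the 1.45% of all nuclear protein-coding genes. The nearer background, the 2.03% of genes with a symbol, is higher and is not drawn. The SMXL family (3 of 8), brassinosteroid (6 of 20) and trehalose-phosphate synthase (3 of 11) lists have the highest shares, and several lists rest on 1 gene.

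In the SMXL family 3 of 8 genes held a midpoint, SMXL6, SMXL7 and SMXL2. SMXL2, a repressor on the karrikin side of the family, was centred 114 bp inside its lower end (chr4:14846398-14848997), with scores of 301.77 in list 2 and 290.86 in list 1. SMXL7 was centred 261 bp inside its lower end, with scores of 149.75 and 149.56. In list 2 SMXL2 and SMXL7 were thus both centred within 500 bp of a gene end, as were 72.7% of all midpoints. The list 1 midpoint at SMXL2 lay outside the gene. The SMXL8 gene was touched, over 276 bp, by a replicated peak whose midpoint lay 341 bp outside it (chr2:16764752-16765984). That peak had the lowest list 2 score, 20.72, and 116.5 in list 1. Of the 5 TOPLESS corepressor genes, 4 were touched by a replicated list 2 peak and 1, TPR3, held the midpoint. Among all 27432 nuclear protein-coding genes, 924 (3.37%) were touched by such a peak. The share touched among genes with a symbol, the nearer background for these lists, is not given here.

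Among hormone genes the brassinosteroid list had the highest share, 6 of 20 (30.0%). They included 4 genes of the family of BES1, transcription factors that act at the end of the brassinosteroid pathway. BEH3 scored 338.89 in list 2 and 410.86 in list 1 (chr4:10351758-10353996), BEH2 241.6 and 324.19, BEH1 101.26 and 103.92, and BES1 60.86 and 180.42. In list 2 all 4 were centred in the lowest of the 5 parts, as were 29.4% of all midpoints, though BEH1 only just (19.8% of its length). Without strand, that part can be the start or the finish of a gene. At BEH2, BEH1 and BES1 the list 1 peak overlapped a further list 2 peak. The kinase gene BIN2 and the biosynthetic gene ROT3 made up the 6. A replicated list 2 peak touched 11 of the 20, against 3.37% of all protein-coding genes, with no such share at hand for genes with a symbol.

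In the cytokinin list 4 of 30 (13.3%) held a midpoint. Besides CKX7 these were LOG8, for an activating enzyme, centred 98 bp inside its upper end with scores of 301.2 and 235.59 (chr5:3856543-3857748), the oxidase gene CKX5, with 100.05 and 116.11, and the response regulator gene ARR7, with 144.67 and 91.07. In the abscisic acid list 4 of 35 (11.4%) did. They were the receptor genes PYL4 (128.53 in list 2 and 70.5 in list 1), PYL5 (50.19 and 128.66) and PYL8, and NCED3, a biosynthetic gene (84.07 and 88.45). In list 2 the 3 receptor genes were centred in inner parts, as were 146 of all 381 midpoints in 1 gene. PYL5 had the lowest list 2 score of all 392 peaks. In the auxin list 3 of 43 (6.98%) held one. The efflux carrier gene PIN3, with 275.8 and 324.08, was covered over 88.9% of its length by its list 2 peak (chr1:26742831-26746076), while the repressor genes IAA26 (154.17 and 295.58) and IAA2 (180.75 and 124) were crossed at 1 end.

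The jasmonate list had 2 of 22 (9.09%), both JAZ repressor genes. JAZ1 scored 382.65 and 367.86 and was centred 222 bp inside its lower end (chr1:6620335-6623664), and JAZ9 scored 71.39 and 113.36. GA2OX8 was the 1 gene of 19 in the gibberellin list, and 0 of 18 ethylene genes held a midpoint. In the light and clock list 4 of 31 (12.9%) did. PIF7, a bHLH factor of shade responses, scored 136.53 and 428.03 and was centred 71 bp inside its upper end, under a list 1 peak that also overlapped another list 2 peak. TCP21, a repressor of the clock gene CCA1, scored 120.71 and 209.84, PIF4 119.33 and 120.05, and HY5, which promotes light responses, 106.91 and 58.95.

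Of the ERF and CBF genes 6 of 29 (20.7%) held a midpoint. CBF1, CBF2, CBF3, CBF4 and ERF10 were each covered whole by the peak in both lists. CBF3 scored 356.68 and 331.73, CBF2 345.1 and 219.81, CBF4 507.5 and 188.63, and ERF10 78.15 and 61.15. At ERF12 (107.51 and 126.91) the list 1 peak covered the gene and the list 2 peak crossed 1 end, over 58.8% of its length. The 5 genes covered in both lists are short, from 984 bp at CBF4 to 1391 bp at CBF3. CBF1, CBF2 and CBF3 are neighbouring copies on chromosome 4, and how reads shared by near-identical copies were placed is not given in the sources used here. TCP9 and TCP21 made up 2 of 16 TCP genes. The homeobox list had 4 of 53 (7.55%): HDG1, HAT2, HB-2, which like HAT2 is a class II HD-ZIP gene (52.76 and 134.32), and HDG5, like HDG1 of class IV (98.75 and 64.4). The homeobox genes ANL2 (65.94 and 124.66) and WOX1 (156.98 and 145.72) held a midpoint too but have symbols outside the pattern of that list.

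WRKY genes had 3 of 67 (4.48%), WRKY7 (162.42 in list 2 and 182.15 in list 1), WRKY11 (143.01 and 116.61) and WRKY17 (73.46 and 97.96), all of group IId. Of 115 numbered MYB genes 4 (3.48%) held a midpoint. MYB73 (164.87 and 330.07) and MYB77 (90 and 98.82) are close relatives, as are the repressor genes MYB4 (79.05 and 79.24) and MYB7 (67.19 and 58.78). BBX14 (179.04 and 196.01) and BBX15 (80.13 and 128.93), zinc finger genes, were 2 of 19. GATA1 was the 1 of 22 GATA genes, SPL10 (61.71 and 67.05) the 1 of 16 SPL genes and NAC102 (181.98 and 151.31) the 1 of 81 genes of the NAC list, which does not hold ATAF2 (93.86 and 69.32), a NAC gene with a midpoint. Among genes with numbered symbols, midpoints were found in 0 of 19 bZIP, 0 of 12 DOF, 0 of 9 bHLH and 0 of 3 ZAT genes. HY5, a bZIP gene by another name, and the bHLH genes PIF4 and PIF7 are not among them.

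Metabolic and transport genes varied as much. Trehalose-phosphate synthase genes had 3 of 11 (27.3%). TPS9 scored 340.27 and 571.39 and was centred 166 bp inside its lower end, TPS11 scored 113.33 and 282.93, and TPS8 57.98 and 74.68. The first 2 lay under list 1 peaks that overlapped several list 2 peaks. Nitrogen genes had 4 of 17 (23.5%), LBD37, GLU1, NIA1 and the nitrate transporter gene NRT1.2 (80.24 and 175.77). The list of photosystem, light-harvesting and Rubisco genes had 1 of 28, the small Rubisco subunit gene RBCS3B (177.09 and 156.58). LHCB4.3, a light-harvesting gene that the list does not hold, also held a midpoint, with 392.49 in list 2 and 149.5 in list 1. Expansin genes, whose products loosen cell walls, had 2 of 31, EXPA6 (570.67 and 351.38) and EXPA5 (88.27 and 167.11).

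The longest list, of cytochrome P450 genes with a CYP symbol, had 3 of 219 (1.37%), under the background. ROT3 is not in that list. The 3 were CYP94B3 and the related genes CYP78A6 (112.7 and 83.62) and CYP78A9 (63.15 and 116.51), which promote seed and organ growth. UGT genes had 1 of 58, UGT85A1 (50.65 and 51.45), and CRK genes 1 of 40, CRK11 (115.74 and 53.12). Cyclin genes had 2 of 39 (5.13%), CYCD1;1 (65.78 and 68.88) and CYCJ18 (87.26 and 54.82). There were 0 of 160 EMB genes, 0 of 16 SAUR genes and 0 of 10 calcium ATPase genes with a midpoint. Absence of a midpoint does not show absence of binding. Replicated list 2 peaks centred outside these genes touched ACA2 and ACA8, both calcium ATPase genes, SAUR15 and, in the DOF list, CDF1. They touched 0 of the 160 EMB genes. The depth of these libraries is also unknown.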

How the data were processed

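The deposited files were 2 peak lists with a score per peak. The build TAIR10 and the tools MACS 1.4.2, BWA 0.7.10-r789 and SAMtools are named in the submitters' processing notes. Parameters, depth and the handling of duplicate reads were not given in the sources used. The score, the authors' own value, was taken to be p on a negative log10 scale times 10, since all scores but 1 were above 50, a p of 1e-05 on that scale. Peak coordinates are TAIR10, counted from 1. Gene ends, types and names came from RefSeq (TAIR10.1), whose table holds no strand, exons or sequence, so planned positions by strand became positions from the end of lower coordinate, and planned promoter motifs were not run.

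Each list 2 peak was set beside the list 1 peak it overlapped. Values were computed with Python 3.11.15, pandas 2.3.3 and numpy 2.4.6, and overlaps and positions were tested on simulated data. The peaks and gene lists were chosen with earlier results of these data known. Of 298 symbols 297 matched, 14 of them pointed to a locus after the files were opened. Named genes were the 12 best by mean rank, the 4 best in the lower, middle and upper part of the gene and inside it in both lists, 2 per gene list, genes with 2 midpoints, SMXL6 to SMXL8 and those at the limits of the rule; others were picked with their values known. The result of 1 gene list is not reported here. Alternatives changed the overlap, the score minimum, the midpoint, the genes and the replicates used. No result rests on a test.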

Additional observations from a re-analysis of the deposited data

How the results depend on the processing

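No paired analysis was possible because the authors compared each SMXL6-HA library with the control of its number before deposit, and the 2 lists that result hold no values per library. Promoter motifs and their alternative were not run. Of 56 alternative values, 35 stayed within 1.5 times the value reported (counts) or within the spread used for it (other values). The other 21 moved beyond these limits. The 35 are not a measure of stability, as some could hardly move. Leaving out the peaks at SMXL6 left 391 of the 392 peaks. The median width of 1365 bp was judged against a spread of 1340 bp. For gene length and width that spread came from the single lists, which were themselves alternatives. Overlap of at least 50% of both peaks left 174 of the 392 peaks and 36 of the 68 listed genes. Scores of at least 100 in both lists left 155 peaks and 38 listed genes, with a median gene length of 2400 bp, median scores of 207.28 in list 2 and 196.01 in list 1, and 9.4% of peaks inside the gene. With the list 1 midpoint the median gene length was 2193 bp and the outer parts held 44.8% of midpoints. They held 72% in genes of at least 2000 bp and 50.4% there with list 1 midpoints, a combination chosen after seeing the data, as was the restriction to pairs (60.2%).

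With 1 list alone and no overlap required, there were 574 peaks in list 2 and 829 in list 1. The other values, given as the lowest and highest of the lists, were 80 and 121 listed genes, a gene length of 2216 and 2291 bp, an outer share of 45.5% and 63.1%, a width of 1307 and 3207 bp, and 1.97% and 12.6% of peaks inside the gene. The median score was 82.725 in list 2 alone and 88.35 in list 1 alone. With unknown read depth, 2 libraries per group and no summits, a midpoint is only as exact as the peak's width, and sites with weak signal may have been missed.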

Other observations

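A further 6 gene lists were chosen after the genes holding a midpoint had been seen, so their counts are descriptions of that choice. Iron homeostasis genes had 6 of 20, FER1 (92.56 in list 2 and 89.15 in list 1), which encodes ferritin, the iron transport gene OPT3, ZIF1 (52.85 and 146.33), the bHLH regulator genes PYE (111.89 and 64.78) and FIT (113.15 and 51.91), and the reductase gene FRO3 (51.18 and 64.73). All 6 were centred in an outer part of the gene in list 2, where 61.7% of all list 2 midpoints lay. With list 1 midpoints that share over all peaks was 44.8%. Cellulose synthase and CSL genes had 5 of 42. The mannan synthase genes CSLA02 (525.04 and 349.79), CSLA01 (213.8 and 99.6) and ATCSLA09 (64.31 and 57.69) had list 2 peaks wholly inside the gene, while CESA5 (67.69 and 152.92) and CESA1 (74.55 and 74.5) were crossed at 1 end. CIPK kinase genes had 3 of 26, led by CIPK14 (370.14 and 508.62), heat shock factor genes 3 of 21, U-box ligase genes 3 of 23 and RALF peptide genes 2 of 34.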
